A study of Mus musculus with 6 samples.

Results

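The cytosolic ribosomal protein genes encode the proteins of the ribosome that translates nuclear messages, and they were taken here as genes whose symbol begins with Rpl, Rps or Rplp followed by a digit, without S6 kinase symbols and without symbols marked -ps. The rule found 68 of the 22180 genes that had a probe set naming exactly 1 gene. A gene with several probe sets was represented by the one that read brightest on average across the 6 arrays. The 68 comprised 32 of 43 core genes of the large subunit, 22 of 30 of the small subunit, all 3 genes of the stalk (Rplp0, Rplp1 and Rplp2) and 11 further symbols. Those 11 were the paralogues or copies Rpl3l, Rpl6l, Rpl7l1, Rpl10l, Rpl22l1, Rpl32l, Rpl39l, Rps4l, Rps27l and Rps23rg1, and Rps19bp1, which encodes a binding partner of the protein of Rps19 and is not itself a ribosomal protein.

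RNA was measured on 6 whole-transcript expression arrays, 3 labelled Dot1l knockout and 3 labelled wild type. All came from CD8+ T cells of the C57BL/6 strain, the cytotoxic lineage of T cells, purified from spleen and lymph nodes with a magnetic kit. The knockout-labelled arrays came from mice in which floxed Dot1l was crossed with Cre recombinase under the Cd4 promoter, which acts in developing T cells that later become CD4 or CD8 cells. The wild type genotype is not described further in the labels, and neither is the animals' age nor whether each array came from a separate animal, so p-values reflect the spread among these 6 arrays alone, part or all of which may be technical. The comparison addresses how transcript levels differ when T cells lack Dot1l, the enzyme that methylates a lysine in the core of histone H3.

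Ribosomal protein genes are among the most strongly transcribed genes of any growing cell, and their products are built into the small and large subunits in the nucleolus and cytoplasm. Their messages begin with a run of pyrimidines, the 5′ TOP motif, through which mTORC1 signalling and the RNA-binding protein Larp1 control their translation as a group. Resting T cells hold many of these messages ready and raise translation after antigen contact.

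Start regions are shown for 8 of the 10 members with the smallest p. They are from RefSeq (GRCm38.p6), 100 bases before the annotated start to 20 after it, 5′ to 3′ on the gene's own strand. Rpl30, which passed the test below, and Rpl17 are left out because no promoter was found for them. Of the genes shown only Rplp0 and Rpl39 passed. Capitals mark CGGAAG or its reverse complement CTTCCG, the core bound by ETS-family factors such as Gabpa. Rplp0 is chr5:115559367-115559486 (+ strand), Rpl39 chrX:37085203-37085322 (- strand), Rps18 chr17:33955646-33955765 (- strand) and Rps19, at the first of its listed starts, chr7:24884492-24884611 (+ strand). Rps3a1 is chr3:86142649-86142768 (- strand), Rpl11 chr4:136053374-136053493 (- strand), Rpl6 chr5:121204401-121204520 (+ strand) and Rpl37a chr1:72711160-72711279 (+ strand).
Rplp0: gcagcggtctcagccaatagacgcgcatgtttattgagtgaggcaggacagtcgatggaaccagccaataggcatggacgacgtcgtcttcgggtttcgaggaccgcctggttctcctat
Rpl39: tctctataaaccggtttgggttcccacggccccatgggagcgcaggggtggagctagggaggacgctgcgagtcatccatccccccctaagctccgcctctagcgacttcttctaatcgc
Rps18: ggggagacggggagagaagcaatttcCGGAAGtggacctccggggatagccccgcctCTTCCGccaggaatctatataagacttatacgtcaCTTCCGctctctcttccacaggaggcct
Rps19: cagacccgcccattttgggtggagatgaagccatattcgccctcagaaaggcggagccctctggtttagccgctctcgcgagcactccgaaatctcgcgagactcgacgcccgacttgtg
Rps3a1: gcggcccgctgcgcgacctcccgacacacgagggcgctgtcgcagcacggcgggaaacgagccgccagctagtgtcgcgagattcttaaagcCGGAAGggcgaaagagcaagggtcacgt
Rpl11: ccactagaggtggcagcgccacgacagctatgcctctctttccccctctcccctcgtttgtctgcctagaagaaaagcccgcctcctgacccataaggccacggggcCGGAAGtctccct
Rpl6: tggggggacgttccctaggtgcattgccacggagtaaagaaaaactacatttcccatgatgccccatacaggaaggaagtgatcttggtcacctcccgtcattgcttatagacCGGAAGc
Rpl37a: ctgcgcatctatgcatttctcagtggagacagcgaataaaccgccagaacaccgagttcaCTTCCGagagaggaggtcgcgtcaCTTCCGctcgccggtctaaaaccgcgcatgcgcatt

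Promoters were found for 53 of the 68 members by symbol. Over the full window of 250 bases before to 50 after the start, CGGAAG was present on either strand in 33 of the 53 (62.3%), against 4639 of all 27025 promoters in the table (17.2%). A run of at least 8 pyrimidines on the gene's strand between 20 bases before and 50 after the start was present in 38 members (71.7%), against 25.4% of all promoters. CTTTCC, which can lie inside such a run, was present on either strand in 21 members (39.6%) against 26.3%, AAGATGGC, a form of the YY1 motif, in 2 (3.77%) against 2.88% and TATAAA in 5 (9.43%) against 14.2%. The median log2 difference between knockout-labelled and wild type arrays was -0.05 for the 33 members with CGGAAG and -0.02 for the 20 without it. These medians lay close together, and a match or its absence says nothing of whether a factor binds. Of the 8 windows shown, 5 hold a match: Rps18 has 3, Rpl37a 2, and Rps3a1, Rpl11 and Rpl6 have 1 each.

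Array readings are log2 expression values, and a difference of 1 on this scale is a 2-fold change. Within the knockout-labelled group arrays correlated over all genes at r of 0.994 to 0.995, within the wild type group at 0.989 to 0.993 and between groups at 0.984 to 0.987. Dot1l itself had readings of 7.31, 7.26 and 7.33 in the knockout-labelled arrays, against 7.46, 6.96 and 7.18 in the wild type ones (log2 difference 0.10, SE 0.13, limma with Benjamini-Hochberg adjusted p = 0.765). Dot1l thus did not read detectably lower in the knockout-labelled arrays. Which exon Cre removes is not stated in the labels, and a probe set outside it would check nothing, so every direction here refers to arrays as labelled. CD8 T cell markers were bright and similar, with Cd8a at 10.9 ± 0.07 in knockout-labelled arrays and 11.1 ± 0.12 in wild type arrays (SD, n = 3 each), while Cd4 read 3.86 in the knockout-labelled group and 3.79 in the wild type group. For scale, the 95th percentile of 1394 genes for odorant and pheromone receptors of the nose was 3.83, and it served as a guide to background.

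Most ribosomal protein genes did not pass the test. Of the 68 members 2 rose (Rpl30 and Rpl39), 1 fell (Rplp0) and 65 did not pass at an adjusted p under 0.05 in limma, adjusted over all 22180 genes. Over all genes 4.3% rose and 1.2% fell, 5.5% in either direction, and the members' 4.41% is near that background. The median log2 difference of the members was -0.06, against -0.01 over all genes, with 46 members negative and 22 positive. The size of the difference was under 0.2 for 46 members, and the median size was 0.115 against 0.130 over all genes. The 95% interval included 0 for 56 members, and it extended by 0.214 to 0.709 to each side, with a median of 0.273, so with 3 arrays a group differences of that size could be missed.

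**Figure D1:**
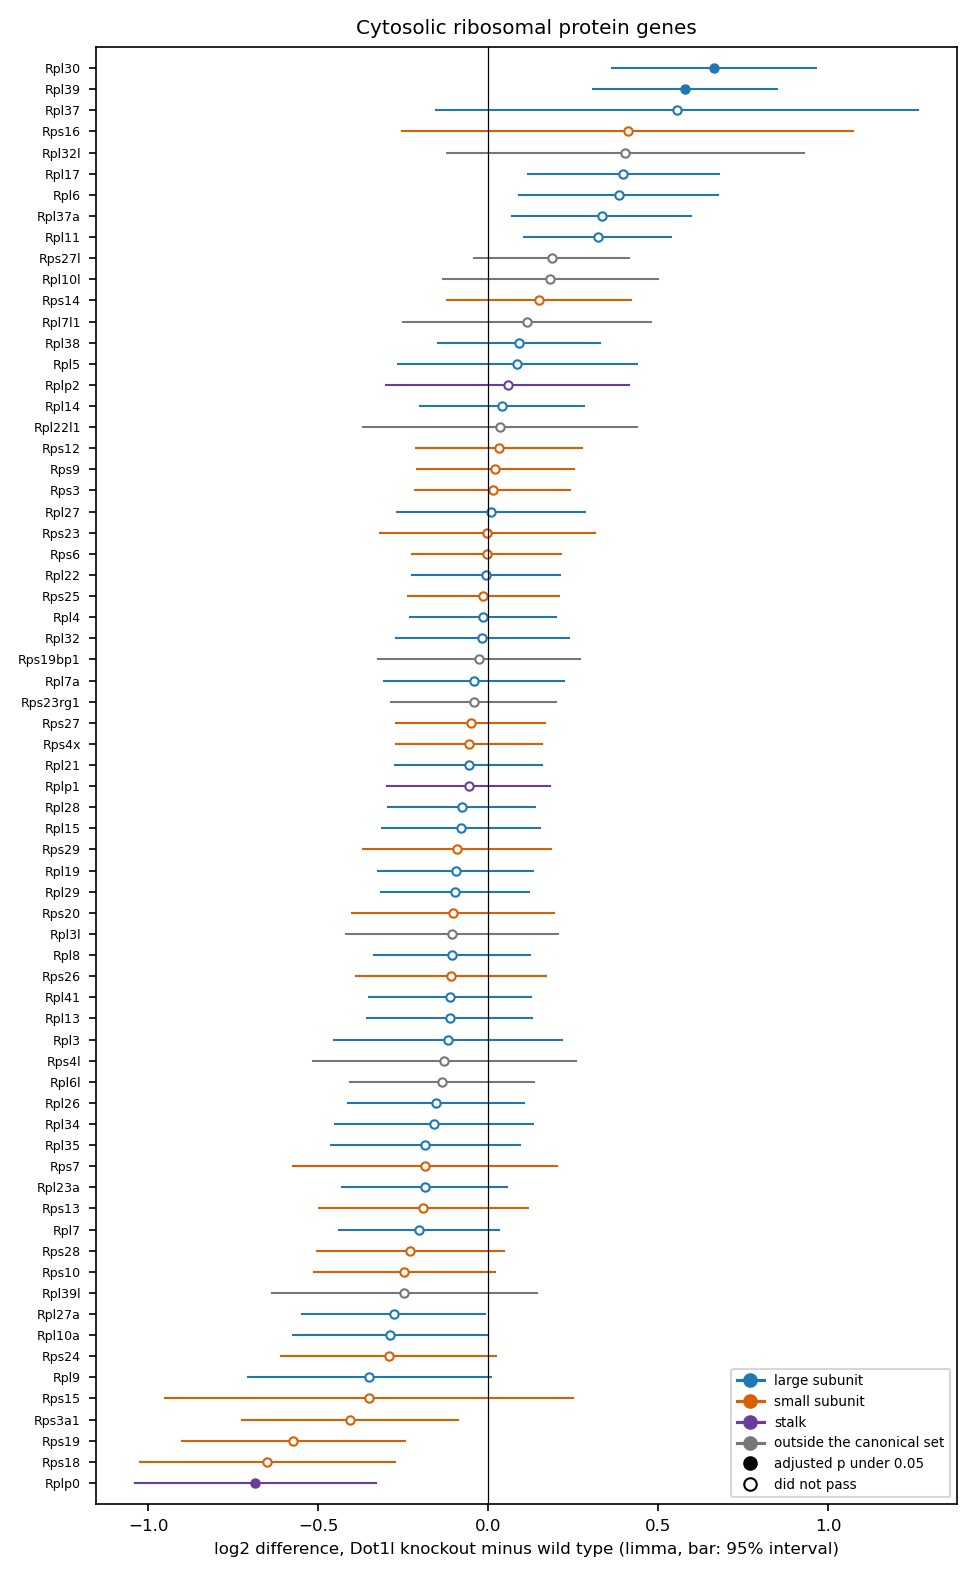
Log2 difference, Dot1l knockout-labelled minus wild type, of the 68 ribosomal protein genes, with 1 row per gene in order of the difference, from limma with the 95% interval as a bar. Filled points passed (Rpl30 and Rpl39 above 0, Rplp0 below 0) and the open points, 65 of 68, did not; colours mark the subunit.

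The groups did not overlap for 17 members (25%), against 23.5% of all genes. In 7 (10.3%) the knockout-labelled arrays were all higher, against 13.7% of all genes, and in 10 (14.7%) all lower, against 9.78%. An unadjusted p under 0.05 was reached by 12 members (17.6%), against 18% of all genes.

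The stalk is the flexible arm of the large subunit that recruits elongation factors, with the protein of Rplp0 as its base and those of Rplp1 and Rplp2 as its mobile pairs. Rplp0 read 8.50, 8.29 and 8.38 in knockout-labelled arrays, against 8.83, 9.44 and 8.95 in wild type arrays. All 3 knockout-labelled values lay below all wild type values, and wild type replicate 2 was the highest of the 6. The log2 difference was -0.69 (SE 0.16, 95% interval -1.04 to -0.33, a 1.61-fold lower level, limma adjusted p = 0.0363), and it was -0.50 without wild type replicate 2 (adjusted p = 0.0397). The call ended without knockout replicate 1, 2 or 3 (adjusted p = 0.0807, 0.135 and 0.126) and without wild type replicate 3 (0.0704). A dimmer probe set of Rplp0 read 5.14 in knockout-labelled arrays and 5.27 in wild type arrays (-0.13, limma adjusted p = 0.653 among probe sets of 1 symbol). Averaging both probe sets left -0.41 (adjusted p = 0.108). Rplp1 read 11.90 ± 0.07 in knockout-labelled arrays and 11.96 ± 0.12 in wild type arrays (-0.06, 95% interval -0.30 to 0.18). The probe set of Rplp2 lay below the background guide, at 3.42 in knockout-labelled arrays and 3.37 in wild type arrays, although cells depend on this gene, so it does not measure the level of Rplp2. A bright probe set naming Rplp2 and Snora52 read 9.94, 9.74 and 9.10 in knockout-labelled arrays and 9.10, 9.12 and 9.26 in wild type arrays. Its groups overlapped (0.43, limma adjusted p = 0.371 over all probe sets), and which of the named genes it read cannot be told apart.

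In the large subunit 2 of 32 measured core genes rose (6.25%, against 4.3% of all genes) and 0 fell (1.2% of all genes did), with a median log2 difference of -0.07, against -0.01 over all genes. An unadjusted p under 0.05 was reached by 8 of the 32 (25%, against 18% of all genes). All knockout-labelled arrays were higher in 6 (18.75%, against 13.7% of all genes) and lower in 4 (12.5%, against 9.78%). Rpl30, whose protein binds its own message in yeast, read 4.12, 4.23 and 4.36 in knockout-labelled arrays and 3.82, 3.37 and 3.53 in wild type arrays. Every knockout-labelled value was higher than every wild type value (log2 difference 0.66, SE 0.13, 1.58-fold, limma adjusted p = 0.0197). The wild type mean of 3.57 lay below the background guide, so the size is uncertain. The call ended without knockout replicate 2 or 3 (adjusted p = 0.0732 and 0.0974) and without wild type replicate 3 (0.0731). Probe sets that name Rpl30 together with predicted genes did not read alike. A bright one naming 4 of them had values of 10.98, 10.94 and 10.98 in knockout-labelled arrays, against 11.18, 11.23 and 11.001 in wild type arrays, all lower in the knockout-labelled group without passing (log2 difference -0.17, limma adjusted p = 0.462 over all probe sets). The brightest, which also names Gm12191, differed by -0.09 with overlapping groups, and a dimmer one, naming Gm7429 and Gm6109, by 0.71 (adjusted p = 0.0197). The probe sets thus disagreed on the direction for Rpl30.

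Rpl39, an X-linked gene for one of the smallest ribosomal proteins, which lines the peptide exit tunnel, read 4.83, 5.13 and 5.03 in knockout-labelled arrays and 4.58, 4.36 and 4.32 in wild type arrays. The groups did not overlap, and the spread within each was narrower than the gap between their means (log2 difference 0.58, SE 0.12, 1.49-fold, adjusted p = 0.0231). The call ended after another quantile normalization (0.42, adjusted p = 0.0787), without knockout replicate 2 or 3 (0.105 and 0.102) and without wild type replicate 2 or 3 (0.0518 and 0.0867). A probe set naming Rpl39 and 2 predicted genes was also higher in all knockout-labelled arrays without passing (0.29, adjusted p = 0.383 over all probe sets). The autosomal paralogue Rpl39l, known from testis, read 4.38 ± 0.16 in knockout-labelled arrays and 4.62 ± 0.35 in wild type arrays (-0.25, adjusted p = 0.523).

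Other large subunit genes had non-overlapping groups without passing. Rpl11, whose protein with that of Rpl5 binds the p53 inhibitor Mdm2 when ribosome assembly fails, read 4.40, 4.37 and 4.31 in knockout-labelled arrays and 4.09, 4.0 and 4.02 in wild type arrays. The groups were apart by more than their spread, but the difference did not pass (log2 0.32, SE 0.10, limma adjusted p = 0.100), except among genes above the median level. Rpl5 overlapped, at 6.68 ± 0.13 in knockout-labelled arrays and 6.59 ± 0.30 in wild type arrays. Rpl17, Rpl6 and Rpl37a were likewise higher in all knockout-labelled arrays than in all wild type arrays without passing. Rpl17 averaged 7.38 ± 0.05 in knockout-labelled arrays and 6.98 ± 0.22 in wild type arrays (adjusted p = 0.118). Rpl6 averaged 4.34 ± 0.23 in knockout-labelled arrays and 3.96 ± 0.07 in wild type arrays (0.147), and Rpl37a 5.51 ± 0.15 in knockout-labelled arrays and 5.17 ± 0.11 in wild type arrays (0.159). A bright probe set that names Rpl37a and Mir682 went the other way, with 10.78, 10.61 and 10.61 in knockout-labelled arrays, against 10.79, 11.05 and 10.93 in wild type arrays (log2 difference -0.26, adjusted p = 0.302 over all probe sets). Rpl17 passed without wild type replicate 2 and with array weights. Rpl37 had readings of 5.19, 5.29 and 6.54 in knockout-labelled arrays, against 5.15, 5.35 and 4.85 in wild type arrays. Knockout replicate 3 alone was high, and the log2 difference of 0.56 did not pass (adjusted p = 0.412). On the probe sets used, all knockout-labelled arrays were lower in 4 large subunit genes, Rpl7, Rpl23a, Rpl27a and Rpl29. Their log2 differences of -0.28 to -0.10 did not pass. The -0.28 was that of Rpl27a, whose probe set read 2.80 on average, below the background guide, so it does not measure the level of Rpl27a. A bright probe set naming Rpl27a and Gm13981 was also lower in all knockout-labelled arrays without passing (-0.19). One that also names Snora3 overlapped (-0.09). A dimmer probe set of Rpl7 went the other way, higher in all knockout-labelled arrays. It did not pass (0.26, limma adjusted p = 0.26 among probe sets of 1 symbol). The dimmer probe set of Rpl29 gave -0.25, with overlapping groups.

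**Figure D2:**
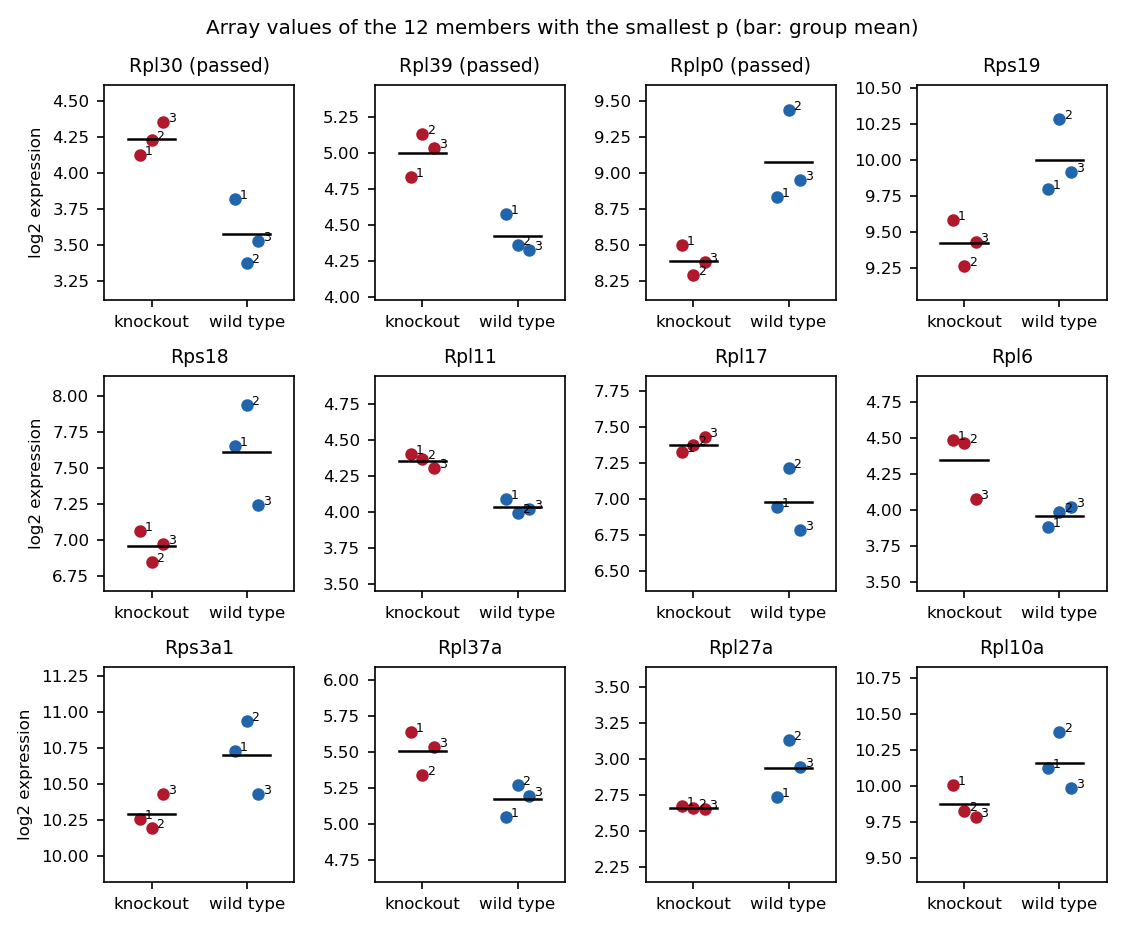
Log2 expression in each array of the 12 ribosomal protein genes with the smallest p, knockout-labelled arrays left and wild type arrays right, numbered by replicate, with the group mean as a bar and the same span of the vertical axis in every panel. Rplp0, Rps19, Rps18, Rps3a1 and Rpl27a were lower and Rpl30, Rpl39, Rpl11, Rpl17, Rpl6 and Rpl37a higher in all knockout-labelled arrays. Wild type replicate 2 was the highest wild type array in each of those 5 lower genes. The Rpl27a probe set lay below the background guide.

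In the small subunit 0 of 22 measured core genes passed in limma, against 5.5% of all genes. An unadjusted p under 0.05 was reached by 3 (13.6%, against 18% of all genes). All knockout-labelled arrays were lower in 5 (22.7%, against 9.78% of all genes) and higher in 0 (13.7% of all genes were). The median log2 difference was -0.10, against -0.01 over all genes, with 17 negative and 5 positive. Rps18, whose protein sits in the head of the subunit, read 7.07, 6.85 and 6.98 in knockout-labelled arrays and 7.65, 7.94 and 7.25 in wild type arrays. All knockout-labelled values were lower, and the wild type values were widely spread (log2 difference -0.65, SE 0.17, adjusted p = 0.0573). Rps19, which is mutated in Diamond-Blackfan anaemia in humans, read 9.58, 9.27 and 9.43 in knockout-labelled arrays and 9.80, 10.29 and 9.92 in wild type arrays. These groups also did not overlap (-0.57, SE 0.15, adjusted p = 0.0555). Both genes passed with trend and robust fitting (adjusted p = 0.0238 for Rps18 and 0.0124 for Rps19) and among genes above the 25th or the 50th percentile of level. The other probe sets did not repeat the size of the Rps18 difference: they gave 0.13 and -0.36, at readings below the background guide. The dimmer probe set of Rps19 gave -0.06.

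On the probe sets used, Rps3a1, Rps24 and Rps28 were also lower in all knockout-labelled arrays. Their log2 differences of -0.41, -0.29 and -0.23 did not pass (limma adjusted p = 0.157, 0.320 and 0.376). For Rps3a1 the highest knockout-labelled and the lowest wild type array both read 10.43. A dimmer probe set of Rps28 went the other way, with 5.12, 5.01 and 5.19 in knockout-labelled arrays, against 4.82, 4.47 and 4.74 in wild type arrays. It did not pass (0.43, limma adjusted p = 0.0910 among probe sets of 1 symbol). Dimmer probe sets of Rps24 gave -0.22 and 0.12, and that of Rps3a1, below the background guide, gave -0.07. Rps6, the substrate of S6 kinases, read 12.10, 12.02 and 12.09 in knockout-labelled arrays and 12.01, 12.15 and 12.06 in wild type arrays. Its groups overlapped fully, and the log2 difference was -0.005 with a 95% interval of -0.22 to 0.22. Rps4x, the X-linked small subunit gene, differed by -0.06 (-0.27 to 0.16), and Rps23, of the decoding centre, by -0.004 (-0.32 to 0.31). The probe sets of Rps15 and Rps16 read 3.45 and 2.99 on average, below the background guide, and their differences of -0.35 and 0.41 had standard errors of 0.27 and 0.29. A bright probe set that names Rps16 with other symbols differed by -0.08 with overlapping groups (limma adjusted p = 0.789 over all probe sets).

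None of the 11 symbols outside the core set passed in limma, where 5.5% of all genes did, and 0 had an unadjusted p under 0.05, against 18% of all genes. Rpl22l1, the paralogue of Rpl22 that can partly stand in for it in mice, read 6.03, 6.22 and 6.03 in knockout-labelled arrays and 6.43, 5.65 and 6.10 in wild type arrays. Its groups overlapped, with the wild type arrays more spread (log2 difference 0.03, 95% interval -0.37 to 0.44). Rpl22, required for alpha beta T cells in the mouse, read 5.42 ± 0.01 in knockout-labelled arrays and 5.43 ± 0.08 in wild type arrays (-0.01, -0.22 to 0.21). Rps27l, a p53-inducible paralogue of Rps27, read 5.24, 5.04 and 5.13 in knockout-labelled arrays, against 4.99, 4.96 and 4.90 in wild type arrays. This was the 1 symbol of the 11 whose groups did not overlap (0.19, SE 0.10, adjusted p = 0.388), and Rps27 differed by -0.05 (-0.27 to 0.17). Rpl3l, a muscle paralogue of Rpl3, and the copies Rpl10l and Rpl32l lay below the background guide, at mean readings of 3.63, 2.25 and 2.56, with differences of -0.11, 0.18 and 0.40. Their core partners Rpl3 and Rpl32 differed by -0.12 and -0.02. Rpl6l, Rpl7l1, Rps4l, Rps23rg1 and Rps19bp1 differed by -0.14, 0.11, -0.13, -0.04 and -0.03.

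Differences were set against how bright each probe set was. Readings of different probe sets are not levels of different genes, since probes differ in how well they bind, and the same family spans 2.25 to 12.3. Among the 28 members reading 10 or more, 23 were negative and 5 positive, with a median of -0.09 (0.01 over 315 genes of that range). Of these members 0 were called, where 6.67% of the 315 genes were. The 6 members between 8 and 10 had a median of -0.27, against 0.04 over 1780 genes, and included Rplp0. The 12 members between 6 and 8 had a median of -0.02, against 0.05 over 4002 genes. The 14 members between 4 and 6 had a median of 0.07, against 0.04 over 4627 genes, with 7 positive and 7 negative. The 8 below 4 had 0.12, where all 11456 genes of that range had -0.04. Over the 68 members the difference and the mean reading had a Pearson r of -0.37 and a Spearman rho of -0.25, a description over genes that share the same 6 arrays; over all 22180 genes rho was 0.17. In the 16 members reading 11 or more the difference largest in size was -0.19, for Rpl35, and it did not pass. The 5 brightest, Rpl4 (12.3), Rpl21 (12.2), Rps6 (12.1), Rpl28 (12.01) and Rplp1 (11.9), lay near the highest value of any array, 12.85.

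**Figure D3:**
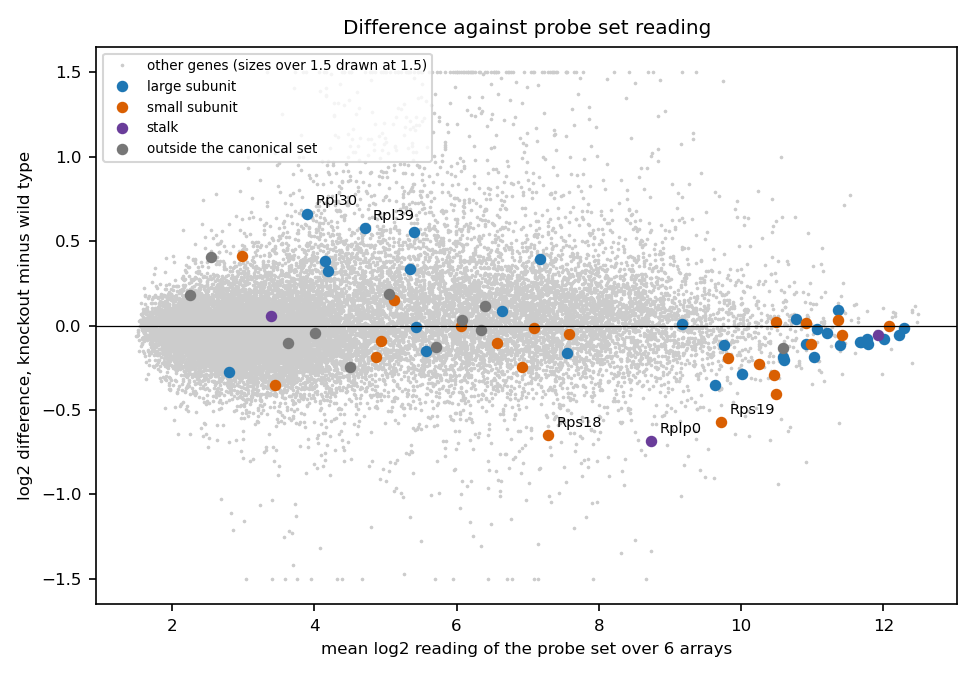
Log2 difference, knockout-labelled minus wild type, against the mean log2 reading over 6 arrays, for the ribosomal protein genes (coloured by subunit) and all other tested genes (grey). Bright members lie just below 0, with 23 of 28 at readings of 10 or more negative, while Rpl30 and Rpl39 lie above 0 at dim readings.

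Arrays differed in how they read the whole family. Relative to each gene's mean over 6 arrays, the median deviation of the 68 members was -0.01, -0.10 and -0.01 in knockout-labelled replicates 1, 2 and 3, and -0.04, 0.14 and -0.03 in wild type replicates 1, 2 and 3. Wild type replicate 2 was the highest wild type array for 46 of 68 members, and knockout replicate 2 was the lowest knockout-labelled array for 42. Without wild type replicate 2 the members' median difference was -0.03, and without any other array it lay between -0.08 and -0.05. The median of the 16010 unnamed probe sets was 3.55, 3.63 and 3.61 in knockout-labelled arrays and 3.49, 3.34 and 3.45 in wild type arrays, so wild type replicate 2, high for the members, was the lowest there. With that median added to the fit, an alternative chosen once the values were known, 0 of 68 members passed in limma (216 of all genes did, and 5 members had an unadjusted p under 0.05) and the members' median difference was 0.14. This covariate separates the groups, and its part in the results and that of the genotype cannot be told apart.

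**Figure D4:**
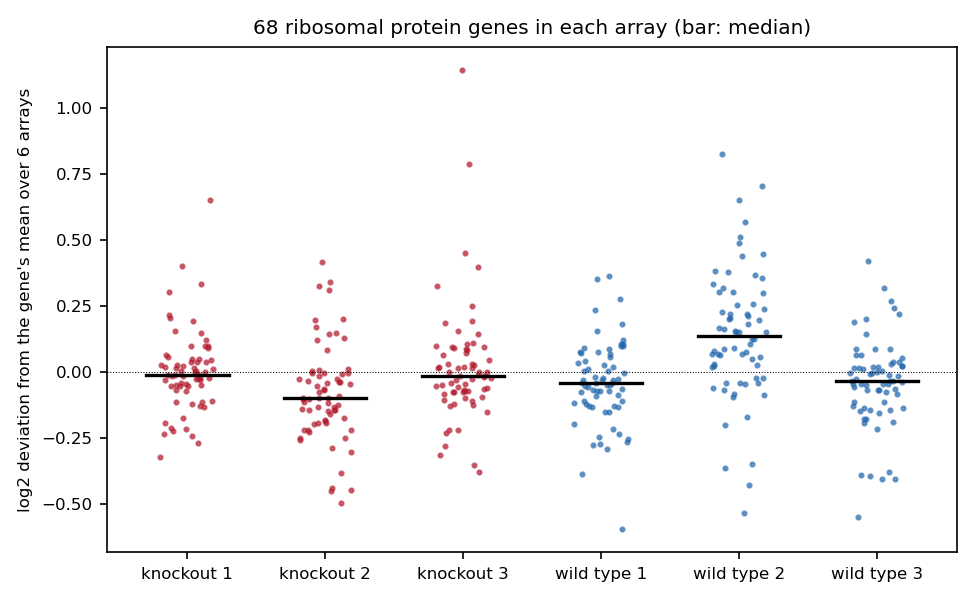
Log2 deviation of each of the 68 ribosomal protein genes from its mean over the 6 arrays, by array, knockout-labelled arrays left; the bar is the median. Wild type replicate 2 stands highest, with a median of 0.14, and knockout replicate 2 lowest, at -0.10.

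Markers of other cells also moved. Of 11 measured B cell markers 4 rose (Cd22, Ms4a1, H2-Aa and Cd79a), 36.4% against 4.3% of all genes. Ighm fell, 9.09% against 1.2% of all genes. It was the brightest of the 11, at a mean reading of 10.7, while the 4 that rose averaged 3.81 to 5.52. Below the background guide lay 5 (Ms4a1, Pax5, Ebf1, Cr2 and Blnk, of which Ms4a1 is one that rose). The summed log2 readings of the 11 were 55.7 to 58.6 in knockout-labelled arrays and 50.8 to 54.0 in wild type arrays. Of 11 myeloid and dendritic cell markers 2 rose (18.2%, against 4.3% of all genes) and 0 fell (1.2% of all genes did). Their sums overlapped, at 42.7 to 44.3 in knockout-labelled arrays and 42.5 to 44.2 in wild type arrays, and 6 of the 11 lay below the background guide. The 3 measured erythroid markers all lay below it, with 0 passing, as did 2 of 4 platelet markers. Of 4 CD4 helper markers 1 rose (25%), and of 3 NK cell markers 1 rose (33.3%), each against 4.3% of all genes. The NK marker was Eomes, which memory CD8 T cells also use, and NK sums were 19.0 to 19.1 in knockout-labelled arrays and 15.8 to 17.4 in wild type arrays. Their part in the readings of ribosomal protein genes was not tested, and fewer cells of a type and less RNA per cell cannot be told apart in such samples.

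Several probe sets of a gene gave a check within the member list. For 24 members there was more than 1 probe set naming only that gene, and in 3 of them (Rps12, Rps19 and Rpl23a) some probe sets held identical values. Of 33 other probe sets with values of their own, 19 had the sign of the probe set used. Among all probe sets with 1 symbol 2 of the 33 passed, both higher and both dim, where 1236 of all 23521 did. The second probe set of Rps20 read 4.76, 4.82 and 4.89 in knockout-labelled arrays and 4.19, 4.08 and 3.92 in wild type arrays (log2 difference 0.76, limma adjusted p = 0.00446), whereas the brighter one differed by -0.10 (adjusted p = 0.749). The second probe set of Rpl27 read 5.83, 5.82 and 5.85 in knockout-labelled arrays, against 5.43, 5.41 and 5.35 in wild type arrays (0.44, adjusted p = 0.0285), whereas the brighter one differed by 0.01. For these genes the probe sets disagreed on whether there was a change. The several probe sets of Rpl41, 5 in all, were each lower on average, by -0.54 to -0.11, with none passing.

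Genes that work with ribosomal proteins were set beside them. Of 2 measured ribosomal proteins whose symbols fall outside the rule, Fau read 10.6 ± 0.11 in knockout-labelled arrays and 10.6 ± 0.22 in wild type arrays (-0.09) and Rpsa 11.3 ± 0.07 in knockout-labelled arrays and 11.3 ± 0.18 in wild type arrays (-0.01). Of 71 mitochondrial ribosomal proteins, which translate the messages of the organelle, 1 fell (Mrps18b, -0.40, SE 0.09, limma adjusted p = 0.0399) and 0 rose. That is 1.41% passing, against 5.5% of all genes, and the median was 0.02. All knockout-labelled arrays were higher in 15 (21.1%, against 13.7% of all genes) and lower in 5 (7.04%, against 9.78%). An unadjusted p under 0.05 was reached by 16 (22.5%, against 18%). Mrpl1 (0.55) and Mrps2 (0.48) did not pass (adjusted p = 0.0510 and 0.0603). The call of Mrps18b ended without knockout replicate 1, 2 or 3 or wild type replicate 1 or 3, and with the mean of probe sets. Of 15 ribosomal protein symbols marked -ps, 8 of them named after Rps15a or Rpl31, which are not among the members, 1 rose (Rps15a-ps6, from a probe set reading 4.98, 5.54 and 5.22 in knockout-labelled arrays and 4.32, 3.11 and 3.73 in wild type arrays, 1.53, adjusted p = 0.0109) and 14 were negative, with a median of -0.12. Rps15a-ps8 (-0.25) and Rps19-ps3 (-0.58) did not pass. The 1 that passed is 6.67% of the 15, against 5.5% of all genes.

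Of 34 ribosome biogenesis factors 3 fell and 0 rose (8.82%, against 1.2% lower over all genes), with a median of -0.09. In 9 of the 34 (26.5%, against 9.78% of all genes) all knockout-labelled arrays were lower. In 3 (8.82%, against 13.7%) all were higher. Nle1, a partner of the 60S remodelling enzyme Mdn1, read 6.07, 5.70 and 5.76 in knockout-labelled arrays and 6.46, 6.5 and 6.60 in wild type arrays. No value overlapped (-0.68, SE 0.12, limma adjusted p = 0.0120). Rrp9, a component of the U3 particle that starts cleavage of the pre-rRNA, fell by 0.59 (adjusted p = 0.0154), and Nob1, the nuclease that makes the end of 18S rRNA, fell by 0.46 (adjusted p = 0.0448). Without some arrays these calls ended: Nle1 and Rrp9 without knockout replicate 2 or 3 or wild type replicate 3, and Nob1 when any 1 of the 6 was left out. Of 12 elongation, recycling and release factors Eef2k, the kinase that slows elongation by phosphorylating Eef2, rose (5.34, 5.32 and 5.67 in knockout-labelled arrays and 4.74, 4.87 and 5.03 in wild type arrays, 0.56, adjusted p = 0.0366), a call that ended after both rescalings and when any 1 array was left out. Eef1e1 (-0.33) and Eef1b2 (-0.21) did not pass. The 1 that passed is 8.33% of the 12, against 5.5% of all genes.

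In limma no gene passed among the 16 of RNA polymerase I transcription (median -0.16) or the 14 other TOP messages (median -0.13). Nor did any of the 14 of mTORC1 and S6 kinase signalling (median 0.00) or the 9 transcription factors (median 0.03). Of all genes 5.5% passed. In that order 1, 2, 1 and 0 (6.25%, 14.3%, 7.14% and 0%) had an unadjusted p under 0.05, against 18% of all genes. Polr1a, the largest subunit of RNA polymerase I, read 7.44 ± 0.09 in knockout-labelled arrays and 7.0 ± 0.15 in wild type arrays (0.45, adjusted p = 0.0575), and Taf1a and Taf1b of its selectivity factor differed by -0.32 and -0.22. Among the TOP messages Nap1l1 (-0.28) and Eif4b (-0.21) had the smallest p, and 11 of 14 were negative. In 6 of the 14 (42.9%, against 9.78% of all genes) all knockout-labelled arrays were lower. In 1 (7.14%, against 13.7%) all were higher. Rptor (0.27), Mtor (0.24) and Larp1 (0.17) led the signalling list, and Nrf1 (-0.22), Sp1 (0.15) and Gabpb1 (0.16) the transcription factors.

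**Figure D5:**
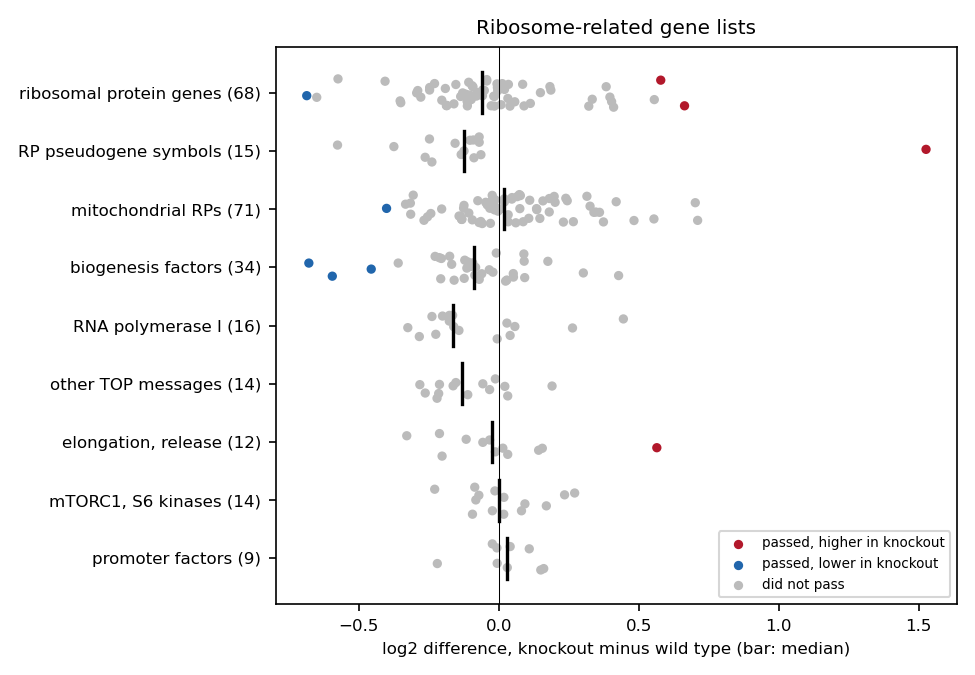
Log2 difference, knockout-labelled minus wild type, of each gene in the ribosomal protein family and 8 related lists, with the median as a bar, genes that passed in red (higher) or blue (lower) and the number of genes after each name. The ribosomal protein genes centre on -0.06, the mitochondrial ones on 0.02 and the biogenesis factors on -0.09, with 3 of 34 lower.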

How the data were processed

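The deposited table holds log2 expression values that the authors made by RMA, which the submitters' processing notes list beside R 3.1.1. Settings, annotation version and genome build are not stated there. Of 41345 probe sets, 23521 named 1 gene symbol, 1814 several and 16010 none in the platform annotation (0 symbols changed through RefSeq). Single values ran from 1.03 to 12.85; arrays have no count depth, so the number of arrays limits precision. Knockout-labelled minus wild type was fitted for 22180 genes with lmFit and eBayes of limma 3.58.1 (R 4.3.3) without a covariate, adjusted by Benjamini-Hochberg, called at an adjusted p under 0.05. The fit was tested on simulated data with added differences larger than that of any member, so that test does not cover the sizes seen in the members. Named genes were members that passed, those with the largest differences and the highest or lowest readings, stalk genes, members outside the core set with their partners, and in each list the 3 with the smallest p; others, chosen after their values were seen, are members with non-overlapping groups. Members and lists were chosen with earlier results of these data known. Same-numbered arrays deviated together at r of -0.07, -0.16 and -0.07, which gave no sign of pairing by number. With 3 arrays a group this cannot settle whether they were paired.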

Additional observations from a re-analysis of the deposited data

Results flagged for a closer look

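Probe sets that name a ribosomal protein together with other genes were left out of the gene test. Of these 2 of 57 passed in limma over all 41345 probe sets, both higher in knockout-labelled arrays and both also naming predicted genes. For scale, 5.5% of the 22180 genes passed in the gene test, which is a separate fit with its own adjustment. The share passing over all 41345 probe sets was not counted, so the 2 are not read as an excess. A probe set naming Rpl30, Gm7429 and Gm6109 read 7.70, 7.70 and 7.77 in knockout-labelled arrays and 7.10, 6.85 and 7.08 in wild type arrays (log2 difference 0.71, SE 0.11, adjusted p = 0.0197). Which of the 3 genes was read cannot be told apart. The groups did not overlap, as on the dim probe set of Rpl30 alone, whereas 2 bright probe sets that also name Rpl30 differed by -0.17 and -0.09 and did not pass. The other that passed, naming Rpl21 and 5 predicted genes, read 5.49, 5.61 and 5.79 in knockout-labelled arrays and 5.08, 4.74 and 4.98 in wild type arrays (0.70, SE 0.14, adjusted p = 0.0422). A further one with the same names was higher in all knockout-labelled arrays without passing (0.51, adjusted p = 0.297). So was a dim probe set naming Rpl21 alone, at 6.31, 6.48 and 6.48 in knockout-labelled arrays and 5.85, 6.01 and 6.18 in wild type arrays. It differed by 0.41 (limma adjusted p = 0.0984 among probe sets of 1 symbol). The bright probe sets of Rpl21 alone differed by -0.06 and -0.05.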

How the results depend on the processing

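The 2 members higher in knockout-labelled arrays became 1 with the replicate block, 1 after another quantile normalization, 4 over all probe sets with 1 symbol and 0 with the unnamed probe set median as a covariate. Leaving out 1 array gave 0 to 2, and adding probe sets of several symbols gave 3 (Rps15a with them). The 1 lower member became 0 with the replicate block, 0 with the mean of probe sets, 0 with the covariate, 2 after quantile normalization, 2 with array weights and 3 with either level filter or with trend and robust fitting, and 0 to 2 without 1 array. The median difference was 0.138 with the covariate, against -0.0579, and between -0.108 and -0.0254 under all other settings run. All changed genes numbered 615 to 1307 without 1 array, against 1220, and 216 with the covariate; the block gave 912. Under the block Rplp0, Rpl39, Nob1 and Mrps18b no longer passed (adjusted p = 0.0614, 0.0635, 0.108 and 0.122). Changed genes split 954 higher to 266 lower as deposited, 755 to 342 after median centring and 625 to 470 after quantile normalization. The median of all genes was -0.06 after either rescaling, against -0.01 as deposited. The block rests on numbers alone, since same-numbered arrays did not deviate together. The cause of these changes was not tested, apart from fewer arrays or fewer genes tested where a setting removes them. Signal near background limits Rpl30 and 7 members below the guide.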

Other observations

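Besides the members, 12 core ribosomal protein genes were read here only on probe sets that name several genes. The brightest shared probe set of each of the 12 gave log2 differences from -0.30 to 0.78, with a median of -0.06 and 10 of 12 negative. The highest was shared by Rps15a and a pseudogene symbol, at 5.78, 5.92 and 6.35 in knockout-labelled arrays and 5.09, 5.22 and 5.40 in wild type arrays, with no overlap (limma adjusted p = 0.0593 over all probe sets). The lowest, shared by Rpl24 and Zbtb11, read 7.92, 7.81 and 7.84 in knockout-labelled arrays and 8.12, 8.15 and 8.22 in wild type arrays, also with no overlap (adjusted p = 0.15). Dimmer probe sets of Rpl24 went both ways without passing. One that also names Zbtb11os1 was higher in all knockout-labelled arrays (0.39, limma adjusted p = 0.158). Another of Rpl24 and Zbtb11 was lower in all of them (-0.27, limma adjusted p = 0.203). A probe set of Rpl10 that also names the small nucleolar RNA Snora70 and Gm5621 read 6.15, 5.69 and 5.03 in knockout-labelled arrays and 4.07, 4.24 and 4.82 in wild type arrays (1.25, SE 0.32, adjusted p = 0.0911), and the bright probe set of Rpl10 and Gm5621 showed no such gap.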
